A study of Mus musculus with 6 samples.

Results

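The p53 gene, Trp53, and 32 genes listed with it as regulators or targets were followed in Fkbp8 mutant and wildtype mouse embryos. The tissue was that behind the forelimb bud at E9.5 (embryonic day 9.5). Probes were taken as members where the platform annotation or the description in the array files gave 1 of the 33 listed symbols or an older alias (Wig1 for Zmat3, Lrdd for Pidd1). That found 39 probes for 31 of the 33 genes, among 18647 genes with a named probe in all. Ckap2 and Eda2r were matched to no probe. The scanner software marks a spot good or saturated when it stands above background, and a probe was tested where 3 or more of the 6 arrays had such a mark. This held for 34 probes of 29 member genes, and for 21688 probes in the whole table (13324 named genes). Trp73 and Fas had probes that were too dim to be tested.

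The study set 3 samples from Fkbp8 mutant embryos (replicates a, b and c) against 3 from wildtype embryos (d, e and f), all offspring of heterozygous intercrosses. Strain and mutant allele are not described in the labels, and the source label of mutant a speaks of embryos in the plural, so it may be a pool. Nothing in the labels pairs the samples or says that each is a separate embryo. In the array headers, mutant a and wildtype d share the leading number of their names, and no source says what it stands for. The p-values therefore cover only how far these 6 samples vary. Every sample had a 1-colour CodeLink array of its own, and intensities are given as normalized log2 values. They allow a probe to be compared between samples but not with other probes.

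p53 is a transcription factor that is kept scarce by the ubiquitin ligase MDM2 and its partner MDM4, and that accumulates when DNA is damaged or ribosome synthesis, growth or oxygen supply is disturbed. It then switches on genes that halt the cell cycle, repair DNA, adjust metabolism or kill the cell, together with genes such as Mdm2 that turn it off again. In midgestation embryos its activation is a known route to cell death and neural tube defects. FKBP8 is a mitochondrial anchor that binds BCL2, a protein that restrains cell death, and the series' title concerns cell death and dorsoventral patterning in the posterior neural tube.

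Mutant c was the dimmest array, with a median background-subtracted intensity of 52.1 and 57.6% of gene probes above background, against 60.7 to 65.1 and 60.4% to 61.8% on the others. Across probes, mutant arrays correlated with each other at 0.987 to 0.990, wildtype arrays at 0.992 to 0.993, and arrays of different groups at 0.988 to 0.990. Fkbp8 averaged 10.66 ± 0.09 in wildtype (SD, n = 3) and 6.23 ± 0.10 in mutants (SD, n = 3), where it was above background on 0 of 3 arrays, and so was at least 18.8-fold lower. Of 19 marker genes of the posterior neural tube and mesoderm, 19 were tested, 15 of them with negative differences, and their summed intensity was 17972 to 19336 in mutants and 19797 to 20689 in wildtypes. Among them Pax6, a regulator of neural progenitors, passed the test (log2 fold change -1.15, limma adjusted p = 0.00287). Markers of other cells were present too. Of the leukocyte markers 5 of 10 were tested, with summed intensities that overlapped between groups (1089 to 1193 in mutants, 1004 to 1178 in wildtypes), and of the anterior brain markers 6 of 9 (2546 to 2914 in mutants, 2183 to 2595 in wildtypes). The part of these lists in the members' values was not tested. The Y-linked genes Ddx3y, Eif2s3y and Uty were detected above background in 3 of 3 mutants and in 0 of 3 wildtypes, and Xist in 0 of 3 mutants and in 3 of 3 wildtypes. Kdm5d, also Y-linked, was above background on all arrays and higher in mutants by 0.63 on the log2 scale (limma adjusted p = 0.0403). Genotype and sex-linked expression therefore cannot be told apart in any result below, nor in those of Pax6 and the marker lists above. The only X-linked gene on the list is Eda2r, which has no matched probe.

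Many genes that p53 switches on carry its binding site near their start, a pair of decamers that each follow the p53 half-site consensus. RefSeq start-site sequences (GRCm38.p6) were at hand for 26 of the 33 members, and the 250 bases before each start were searched for the half-site, which reads the same on both strands. At least 1 exact match was present in 12 of these 26 genes (46.2%), against 8.2% of 27025 genes in the table (windows of equal length, any start of a gene). The members had been listed as p53 genes, so this share is a description of the list. A match says nothing of binding. The 4 windows below belong to the members with a match whose limma p, unadjusted, was under 0.05. They lie at chr17:29090729-29090978 (plus strand), chr13:96519188-96519437 (minus), chr11:40755287-40755536 (minus) and chr9:36797335-36797584 (minus). Each runs 5′ to 3′ in the gene's direction and ends at the base before a RefSeq start of the gene. A gene can have several starts (34 windows for the 26 members), and the start shown is one with a match, not necessarily the main one. Capitals mark the exact half-site matches.
Cdkn1a: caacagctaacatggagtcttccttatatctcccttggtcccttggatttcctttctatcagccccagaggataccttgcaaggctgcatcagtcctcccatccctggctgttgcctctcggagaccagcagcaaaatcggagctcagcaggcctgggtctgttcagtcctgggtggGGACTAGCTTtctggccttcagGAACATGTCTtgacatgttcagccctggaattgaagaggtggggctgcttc
Polk: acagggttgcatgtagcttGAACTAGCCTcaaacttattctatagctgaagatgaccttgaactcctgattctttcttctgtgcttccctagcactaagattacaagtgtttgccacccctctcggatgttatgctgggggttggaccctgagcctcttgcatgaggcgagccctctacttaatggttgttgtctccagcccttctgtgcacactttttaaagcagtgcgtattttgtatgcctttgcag
Ccng1: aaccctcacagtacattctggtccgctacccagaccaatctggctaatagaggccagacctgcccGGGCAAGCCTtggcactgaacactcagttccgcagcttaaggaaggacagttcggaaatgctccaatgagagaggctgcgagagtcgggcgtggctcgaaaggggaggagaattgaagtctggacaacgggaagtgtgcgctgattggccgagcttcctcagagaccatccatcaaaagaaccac
Ei24: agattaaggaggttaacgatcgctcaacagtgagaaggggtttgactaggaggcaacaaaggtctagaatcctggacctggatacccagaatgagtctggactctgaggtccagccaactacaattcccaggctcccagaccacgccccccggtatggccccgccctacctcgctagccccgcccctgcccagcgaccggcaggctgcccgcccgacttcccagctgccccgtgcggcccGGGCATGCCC

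In 25 of 27025 genes (0.0925%) an exact match stood directly beside another decamer with at most 1 mismatch, which makes a complete 20-base site. Cdkn1a and Ccng1 were both among them. They are shown since these genes had opposite signs in the mutants.
Cdkn1a site: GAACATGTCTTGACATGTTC
Ccng1 site: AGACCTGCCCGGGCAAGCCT

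No member passed the test. In limma over all probes tested, 0 of 29 member genes had an adjusted p under 0.05 (Benjamini-Hochberg), where 0.12% of all probes passed, and the smallest adjusted p of a member was 0.28 (Ei24). Log2 fold changes of mutant over wildtype ran from -0.46 (Ei24) to 0.32 (Cdkn1a). Their median was 0.02, against 0.01 over all probes, with 16 members positive and 13 negative. The 95% interval of no member reached a doubling or a halving on this scale, the outermost ends being 1.71-fold lower for Ei24 and 1.47-fold higher for Cdkn1a. Background correction with an offset makes changes of dim probes smaller. On background-subtracted values without it, the intervals of Mdm2 (-1.50 to 0.32) and Perp passed a halving, as they did in the deposited table.

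**Figure D1:**
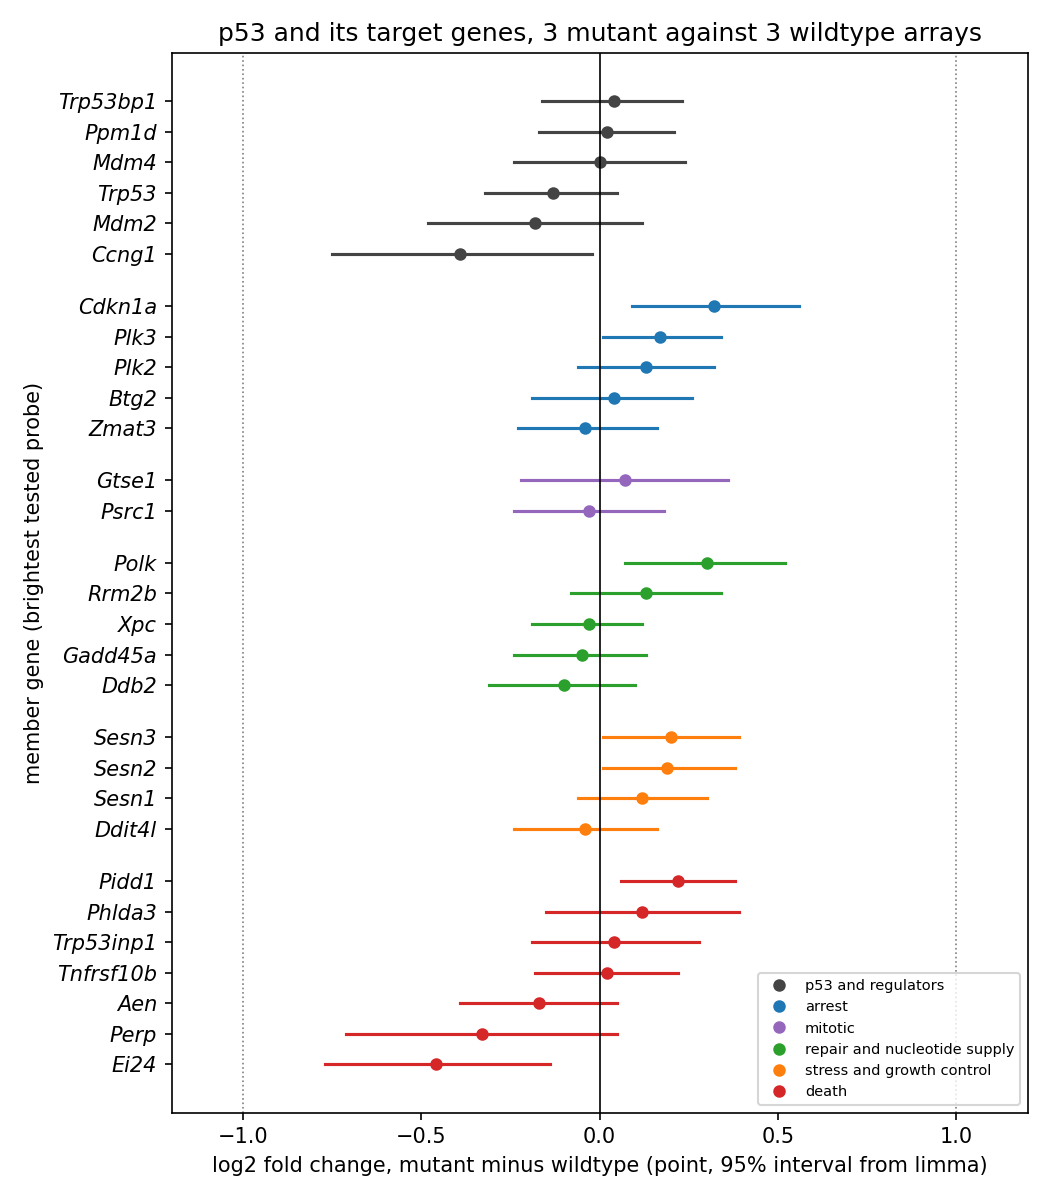
Log2 fold change of mutant over wildtype (horizontal axis) for the 29 tested member genes, grouped and coloured by role, as points with 95% limma intervals from 3 arrays per group. Dotted lines mark a doubling and a halving. Every point lies between -0.46 and 0.32, and no interval reaches a dotted line on this scale.

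Short of the adjusted threshold, a few members showed small differences. At an unadjusted limma p under 0.05, 6 members (20.7%) were higher in mutants, against 6.43% of all probes, and 2 members (6.9%) were lower, against 5.81%. The 6 were Cdkn1a, Plk3, Polk, Sesn2, Sesn3 and Pidd1, and the 2 were Ei24 and Ccng1. In the same 6 genes each mutant array was above each wildtype array (20.7%, against 11.2% of all probes). In 4 members, Ei24, Trp53, Aen and Ddb2, each mutant array was below (13.8%, against 8.56%). For Ddb2 this rests on 2 usable wildtype values. The count of 6 rests on the arrays used, being 3 without mutant b and 2 without wildtype f, where 4.82% and 4.05% of all probes were higher. It was 3 with median centring (all probes: 5.31% higher, 3.17% lower) and 3 higher with 2 lower under cyclic loess (all probes: 5.48% higher, 6.63% lower). The count of 2 lower genes was 1 without mutant b, wildtype e or wildtype f (all probes: 5.78%, 4.14% and 4.01% lower). It was 3 without mutant a (all probes: 6.97% lower). These shares describe 29 genes and carry no test. Erythroid markers, which report blood cells in the tissue, also leaned upward. Of 14 tested, 13 had positive differences, with a median log2 fold change of 0.26, 3 were higher (21.4%) and 0 lower at an unadjusted limma p under 0.05, and 0 passed. Among the globin genes, Hbb-bh1 (0.00, brightest probe), Hba-x (0.00) and Hba-a1 (0.04) hardly differed, and Hbb-y had 0.29 (SE 0.19). The summed intensities of the erythroid markers overlapped, at 81901 to 89266 in mutants and 75921 to 88272 in wildtypes, with wildtype f lowest. The part of these markers in the members' values was not tested.

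**Figure D2:**
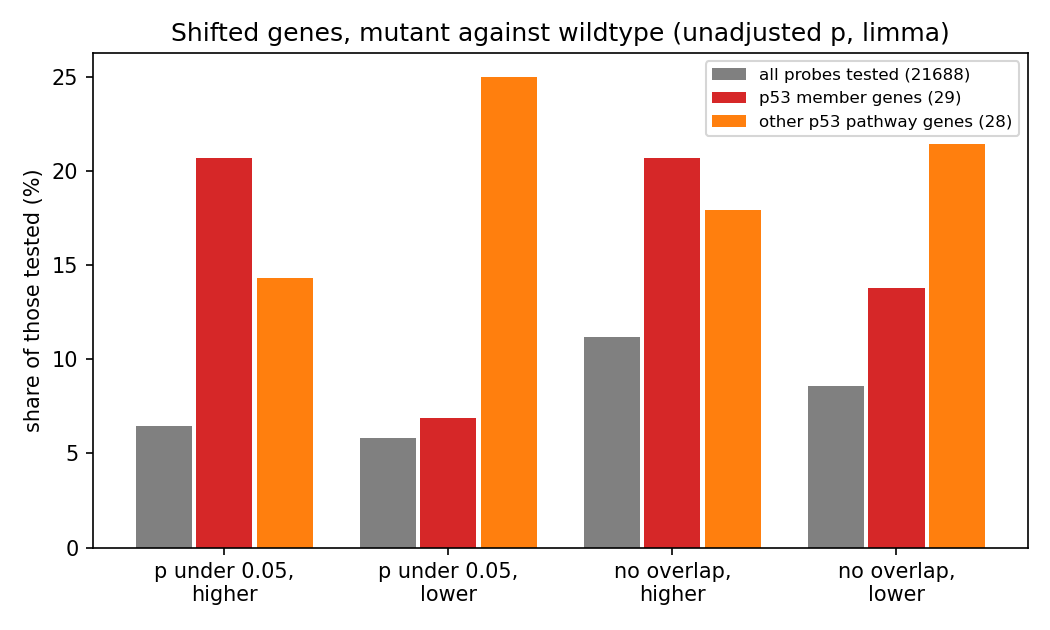
Share in percent (vertical axis) of those shifted in mutants among all 21688 probes tested, the 29 member genes and 28 other p53 pathway genes. Shifted means higher or lower at an unadjusted limma p under 0.05, or no overlap between the usable mutant and wildtype values. The members' bars are highest for higher genes (20.7%, both criteria), and those of the other pathway genes for lower genes at 25%.

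**Figure D3:**
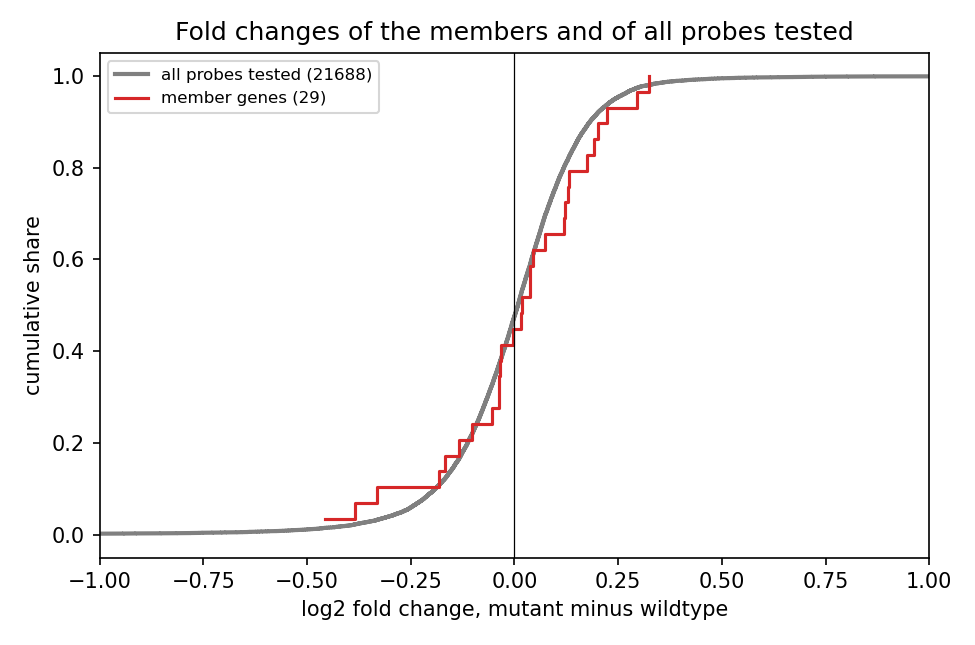
Cumulative share (vertical axis) of log2 fold changes of mutant over wildtype for the 29 member genes and for all 21688 probes tested, drawn from -1 to 1. The medians lie at 0.02 for the members and 0.01 for all probes.

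Trp53 itself measured slightly lower in the mutants, short of the threshold. Its log2 intensities were 11.87, 11.91 and 11.71 in mutants a, b and c and 11.99, 11.94 and 11.96 in wildtypes d, e and f. Every mutant array was thus below every wildtype array, by a small margin for mutant b, and the mean difference was -0.13 (SE 0.08, limma adjusted p = 0.53). The array reads RNA, whereas p53 is regulated mainly at the level of its protein, which was not measured here. Mdm2, the ligase that p53 induces and that degrades it, was close to background, at 6.76, 6.33 and 6.23 in mutants and 6.63, 6.70 and 6.54 in wildtypes. It was above background on 3 of 3 wildtype arrays but only on that of mutant a among the mutants, which was also the highest of all 6. The difference was -0.18 (SE 0.13, limma adjusted p = 0.603), and -0.59 on background-subtracted values without the offset (adjusted p = 0.583). Without mutant a, the only mutant above background, it was -0.34 (adjusted p = 0.206). Mdm2 would not have been tested without its 3 wildtype arrays. That choice favours a lower value in mutants, so none of these values of Mdm2 can be read as support for a difference.

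Ccng1 encodes cyclin G1, a p53 target that brings a phosphatase to MDM2. It read 8.68, 8.14 and 8.78 in mutants and 8.74, 9.00 and 9.00 in wildtypes. Mutant b was lowest, and mutant c lay above wildtype d, so the groups overlapped. The log2 fold change was -0.39 (SE 0.16, unadjusted p = 0.0428, limma adjusted p = 0.391), and -0.19 without mutant b. The remaining regulators did not pass either. These were Mdm4 (0.00, SE 0.11, and -0.10, SE 0.14, at its dimmer probe), the phosphatase gene Ppm1d, whose product switches p53 off (0.02, SE 0.08), and Trp53bp1, a DNA break sensor that binds p53. Trp53bp1 had 0.04 (SE 0.09) at its brighter and 0.15 (SE 0.07, limma adjusted p = 0.466) at its dimmer probe, where every mutant array was above every wildtype array. The p53 relative Trp73 was at background on all arrays at both of its probes.

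Among the arrest genes, 4 of 5 had positive differences, and 0 passed. Cdkn1a encodes p21, the inhibitor of cyclin-dependent kinases through which p53 stops the cell cycle. Its values were 8.17, 8.07 and 8.42 in mutants and 7.84, 7.98 and 7.87 in wildtypes. All mutant arrays were above all wildtype arrays, with mutant c highest, and the means differed 1.25-fold (log2 0.32, SE 0.10, unadjusted p = 0.012, limma adjusted p = 0.291). An unadjusted p under 0.05 was found in 17 of 17 alternative settings, with log2 fold changes of 0.22 (without mutant c) to 0.41.

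Plk3 and Plk2 encode polo-like kinases that respond to stress and damage. Plk3 read 8.43, 8.36 and 8.49 in mutants and 8.23, 8.29 and 8.23 in wildtypes. The groups were apart by 0.17 (SE 0.07, limma adjusted p = 0.394), and its other probe was at background on all arrays. Plk2 read 9.91, 10.12 and 10.05 in mutants and 9.82, 9.94 and 9.93 in wildtypes. Mutant a lay within the wildtype range there (0.13, SE 0.08, limma adjusted p = 0.556). Btg2, an antiproliferative gene of neural progenitors (0.04, SE 0.10), and Zmat3, an RNA-binding zinc finger gene (-0.04, SE 0.09), had differences smaller than their standard errors.

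**Figure D4:**
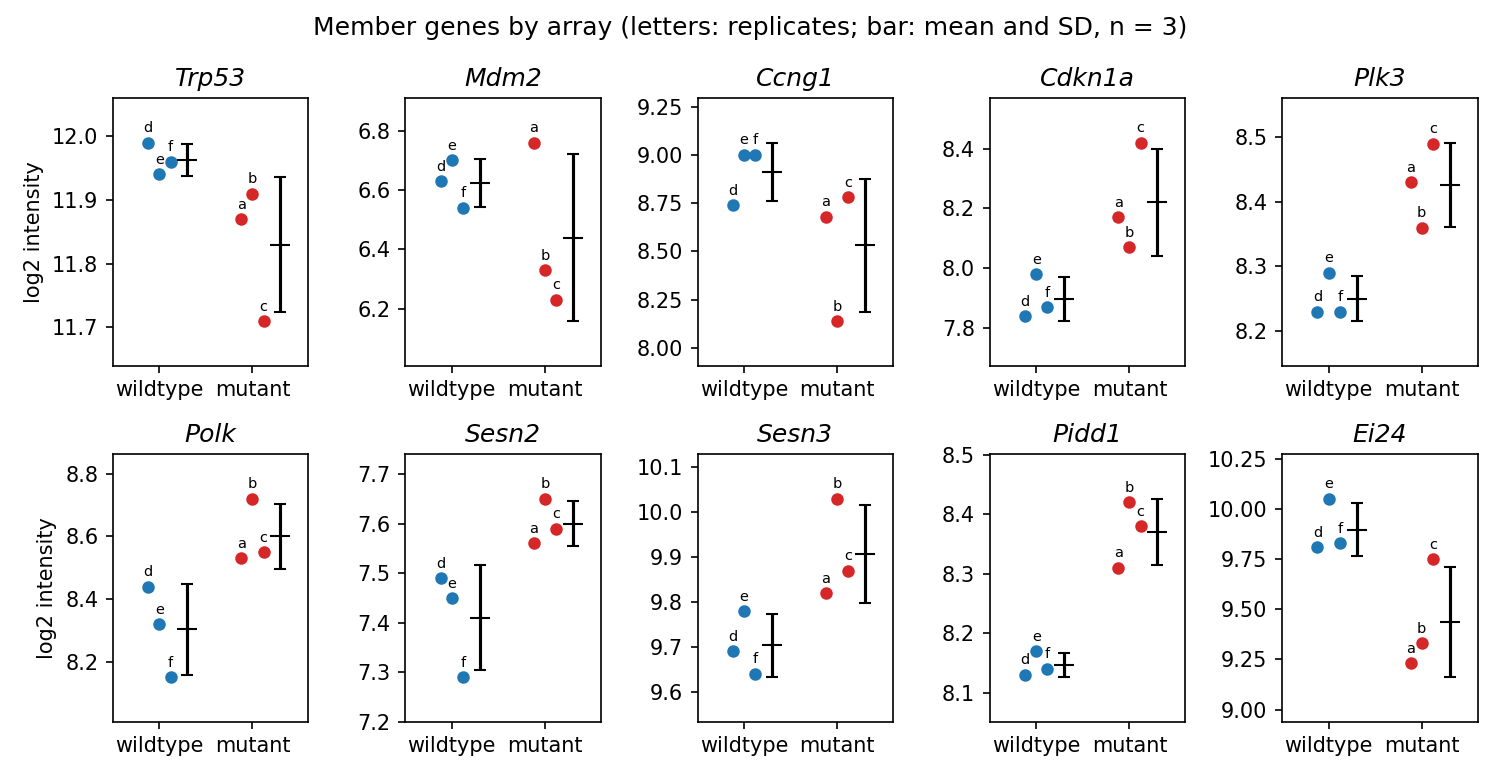
Log2 intensity (vertical axis, a scale of its own in each panel) of 10 member genes on each array, with letters for replicates and a bar for the mean and SD of 3 arrays. Mutant values lie above wildtype values for Cdkn1a, Plk3, Polk, Sesn2, Sesn3 and Pidd1 and below for Trp53 and Ei24, while the groups overlap for Mdm2 and Ccng1.

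Gtse1 and Psrc1 encode microtubule-associated proteins of dividing cells that are listed as p53 genes. Gtse1 read 9.73, 9.70 and 9.27 in mutants and 9.61, 9.45 and 9.42 in wildtypes, so that mutant c was lowest and mutants a and b highest (0.07, SE 0.13). Psrc1 read 10.34, 10.45 and 10.34 in mutants and 10.28, 10.40 and 10.56 in wildtypes, also overlapping (-0.03, SE 0.09). Of 17 tested mitosis genes beside them, 0 passed in limma, 1 was higher at an unadjusted p under 0.05 (Top2a; 5.88%, against 6.43% of all probes) and 3 were lower (Aurkb, Bub1 and Ccna2; 17.6%, against 5.81%).

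Of 5 repair genes 0 passed, and the groups were apart in Polk, upward, and in Ddb2, downward. Polk encodes a polymerase that copies past damaged bases. It read 8.53, 8.72 and 8.55 in mutants and 8.44, 8.32 and 8.15 in wildtypes. The groups did not overlap and differed 1.23-fold (log2 0.30, SE 0.10, unadjusted p = 0.0151, limma adjusted p = 0.31), with mutant b highest and wildtype f lowest. Leaving out either of these brought the unadjusted limma p to 0.0521 and 0.0615. Rrm2b, a ribonucleotide reductase subunit that supplies nucleotides for repair, read 8.15, 8.32 and 8.13 in mutants and 7.96, 8.18 and 8.06 in wildtypes, with overlap (0.13, SE 0.09). Ddb2, a sensor of ultraviolet damage, read 7.23, 7.13 and 7.22 in mutants and 7.35 and 7.24 in wildtypes d and e, the spot of wildtype f being marked unusable (-0.10, SE 0.09). Its partner in nucleotide excision repair, Xpc, differed by less than its standard error (-0.03, SE 0.07, 95% interval -0.19 to 0.12). Gadd45a, a stress gene tied to both repair and arrest, had -0.05 (SE 0.08, interval -0.24 to 0.13).

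The sestrins, which restrain mTOR signalling and oxidative damage, were a little higher at all 3 genes, and 0 of them passed. Sesn2 read 7.56, 7.65 and 7.59 in mutants and 7.49, 7.45 and 7.29 in wildtypes (log2 fold change 0.19, SE 0.08, limma adjusted p = 0.392). Sesn3 read 9.82, 10.03 and 9.87 in mutants and 9.69, 9.78 and 9.64 in wildtypes (0.20, SE 0.08, limma adjusted p = 0.392). Neither gene overlapped between groups, and mutant b was highest for both. The other probe of Sesn3 gave the same size and separation (0.20, SE 0.08). Sesn1, with 8.54, 8.65 and 8.54 in mutants and 8.43, 8.54 and 8.39 in wildtypes, had overlapping groups, since wildtype e equalled mutants a and c (0.12, SE 0.08). Ddit4l, an mTOR inhibitor related to the stress gene Ddit4, had -0.04 (SE 0.09). Sesn2 kept an unadjusted p under 0.05 in 8 of 17 settings, Sesn3 in 9 of 17 and Plk3 in 7 of 17.

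Death genes went both ways, and 0 of 7 tested passed. Ei24 encodes a membrane protein of the endoplasmic reticulum that was found as a p53-induced gene and acts in autophagy. It read 9.23, 9.33 and 9.75 in mutants and 9.81, 10.05 and 9.83 in wildtypes. It was 1.37-fold lower in mutants (log2 -0.46, SE 0.14, unadjusted p = 0.01, limma adjusted p = 0.28), with mutant c just under the wildtypes. Its unadjusted p was under 0.05 in 17 of 17 settings, with log2 fold changes of -0.61 (without mutant c) to -0.35 (without mutant a).

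Pidd1, a scaffold that activates caspase-2, read 8.31, 8.42 and 8.38 in mutants and 8.13, 8.17 and 8.14 in wildtypes at its brighter probe. The groups were well apart for their spread (0.22, SE 0.07, unadjusted p = 0.013, limma adjusted p = 0.299). Its dimmer probe showed no such difference (0.01, SE 0.09), and the mean of both gave 0.12 (limma adjusted p = 0.52). Perp, a membrane protein of desmosomes that p53 uses in apoptosis, read 8.11 and 7.56 in mutants a and b, its spot on mutant c being marked unusable, and 8.26, 8.22 and 8.01 in wildtypes (-0.33, SE 0.16, limma adjusted p = 0.466). Perp is also an epithelial gene. Of 15 markers of surface ectoderm and epithelium, 13 were tested, 11 of them with a negative difference, and 0 passed in limma. Their median log2 fold change was only -0.04. The largest difference, of Esrp1 (-1.06), came with mutant c at 6.10 and mutants a and b at 8.67 and 8.64. The summed intensity of the list was 5178 to 5469 in mutants and 5609 to 5753 in wildtypes. The part of this in the value of Perp was not tested. Fewer cells of a type and less RNA per cell cannot be told apart in such tissue samples.

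The intervals of the other tested death genes included zero. Aen, an apoptosis-enhancing nuclease, had -0.17 (SE 0.10, every mutant below every wildtype array) at its brighter and -0.04 (SE 0.08) at its dimmer probe. The death receptor gene Tnfrsf10b had 0.02 (SE 0.09), the AKT inhibitor gene Phlda3 0.12 (SE 0.12), and Trp53inp1, a p53 cofactor of the stress response, 0.04 (SE 0.10). The receptor gene Fas was above background on mutant a alone, at 6.60, against 6.15 to 6.38 on the other arrays.

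No array stood out over the members as a whole. The mean deviation of 27 members with values on all arrays from their own averages was 0.02, -0.01 and 0.02 in mutants a, b and c, and -0.04, 0.01 and -0.01 in wildtypes d, e and f (log2). By role, the arrest genes averaged 0.05, 0.00 and 0.14 in mutants and -0.09, -0.06 and -0.04 in wildtypes, with mutant c highest. Stress and growth control genes averaged 0.01, 0.15 and 0.02 in mutants and -0.08, 0.01 and -0.10 in wildtypes, with mutant b highest. The mutant with the highest values was thus not the same for these 2 roles. p53 and its regulators averaged 0.08, -0.16 and -0.08 in mutants and 0.02, 0.09 and 0.05 in wildtypes. Mutant b was lowest there, and mutant a lay within the wildtype range.

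Members with a half-site match included genes measured in both directions. Of 11 tested genes with a match, 2 were higher and 2 lower at an unadjusted limma p under 0.05, with a median log2 fold change of -0.05. Of 11 tested genes without one, 4 were higher and 0 lower, with a median of 0.12. Of all probes, 6.43% were higher and 5.81% lower, and with so few genes the split by half-site is a description only. The complete sites of Cdkn1a and Ccng1 stood before a gene with a positive and a gene with a negative difference.

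A further list of 40 p53 pathway genes gave 28 tested, of which 0 passed in limma, 4 were higher (14.3%, against 6.43% of all probes) and 7 lower (25%, against 5.81%) at an unadjusted p under 0.05. Their median log2 fold change was -0.03. The lowest p belonged to Pmaip1, which encodes the BH3-only death protein NOXA. It read 8.31, 8.15 and 8.23 in mutants and 8.78, 8.67 and 8.90 in wildtypes, without overlap (-0.55, SE 0.09, limma adjusted p = 0.106). Bbc3, which encodes the related PUMA, went the other way, at 8.11, 8.06 and 8.11 in mutants and 7.80, 7.84 and 7.90 in wildtypes (0.25, SE 0.07, limma adjusted p = 0.272). The classical pair of p53-induced death genes thus had differences of opposite sign, neither of them past the threshold.

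Upstream of p53, the damage kinase gene Atr (-0.31, SE 0.08, limma adjusted p = 0.244) was above background on 1 of 3 mutant arrays. The acetyltransferase gene Ep300 was detected above background in 0 of 3 mutants and in 3 of 3 wildtypes, and was at least 1.15-fold lower in mutants (limma adjusted p = 0.239). It was dim in the wildtypes too (6.73, 6.67 and 6.51) and was tested only because of these 3 arrays. Atr, too, would not have been tested without its 3 wildtype arrays. Such a choice favours a lower value in mutants. The p of Atr and of Ep300, and their places among the 7 lower genes above, therefore cannot be read as support for a difference. Positive differences with the smallest p beside Bbc3 were those of the thiamine transporter gene Slc19a2 (0.29, SE 0.08, limma adjusted p = 0.276) and of Prkdc, the catalytic subunit of DNA-dependent protein kinase (0.28, SE 0.09, limma adjusted p = 0.313).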

How the data were processed

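Posterior tissue of 6 embryo samples was measured on 1-colour CodeLink arrays with 34967 gene probes. The deposited spot mean and local background median are intensities on a linear scale that, per the file headers, the CodeLink analysis software read from each spot. The deposited series table holds the software's normalized intensity, on a linear scale with a median near 1 (largest difference from the array files 0).

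Background was corrected with normexp (offset 50), spots marked contaminated, irregular or masked were set to missing (339 to 508 per array), and log2 values were quantile-normalized. Probes needed 3 of 6 arrays above background and 2 usable spots per group. Mutant and wildtype were compared with limma 3.58.1 (R 4.3.3; lmFit and eBayes), and two-sided p-values of the 21688 probes tested were adjusted together by Benjamini and Hochberg's method, with a threshold of 0.05. A gene was given by its brightest tested probe. The fit was tested on simulated data with 100 changes of 0.5 and 100 changes of 1 on the log2 scale. At the threshold it recovered 40 and 92 of them, with 8 false calls. A bound sets the brighter group against the higher of the probe's value and the lowest value above background. Probes were named by platform annotation (21577), RefSeq accession (417) or description (483, Trp53 among them); 204 had several genes and 12286 none. Half-sites were searched as exact matches in RefSeq promoter windows.

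The members and lists were chosen with earlier results of these data known. Values per array are given for Trp53, Mdm2, Cdkn1a and up to 3 members per role with the smallest p. Up to 3 other pathway genes are named per direction, ranked by the p of their brightest probe. Atm, a damage kinase gene with 0.05 (SE 0.08) at that probe, was not among them. Its dimmer probe had -0.56 (SE 0.12, limma adjusted p = 0.177), without overlap. Alternatives were other background corrections, normalizations, filters and variance models, the deposited table, marked spots kept, the mean of a gene's probes, and each array left out in turn. The number of arrays limits the precision.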

Additional observations from a re-analysis of the deposited data

How the results depend on the processing

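In all 17 alternative settings 0 members passed an adjusted p of 0.05 in limma (unadjusted counts are given here), and 0 passed an adjusted p of 0.1. The number of members higher at an unadjusted p under 0.05, 6 as reported, was 3 with median centring and 3 with cyclic loess. It was 4 with the deposited table, 4 without a filter on dim probes and 4 with arrays weighted. With background-subtracted values it was 5, with the mean of a gene's probes 5, and with single arrays left out 2 to 4. Of all probes, 4.05% (without wildtype f) to 6.92% (without mutant c) were higher in these settings. The number lower, 2 as reported, was 1 with background-subtracted values (all probes: 4.99% lower) and 1 with median centring (3.17%). It was 1 with the deposited table, values under 0.25 raised to 0.25 (4.53%). When single arrays were left out it was 1 to 3 (4.01% to 6.97%). Members without overlap numbered 6 with median centring instead of 10, where 14.8% of all probes had none. Signs turned, at 2 decimals, in 14 of 486 comparisons of a member with a setting, all of them for genes close to zero. Mdm4, at 0.00 in the main fit, was counted as having no sign to turn, and ranged from -0.12 to 0.08. With median centring Psrc1 was 0.04 and Zmat3 0.03, and with the deposited table Psrc1 was 0.01. With single arrays left out, log2 fold changes ranged from -0.10 to 0.04 for Psrc1, -0.08 to 0.04 for Zmat3, -0.01 to 0.12 for Btg2, -0.01 to 0.22 for Gtse1, -0.02 to 0.13 for Trp53inp1, -0.04 to 0.07 for Tnfrsf10b, -0.04 to 0.08 for Ppm1d and -0.01 to 0.09 for Trp53bp1. The cause of these changes was not tested. Median centring moved the median of all probes to 0.03. No paired analysis was possible because the replicate letters of mutants and wildtypes are all different, and the header number that mutant a and wildtype d share gives a single possible pair. A slide or scan block was not run, since each array lay on a slide of its own and the headers give no scan batch.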
